A study of Homo sapiens with 20 samples.

Results

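Interferon-stimulated genes, 49 members chosen by symbol from general knowledge of the interferon response, were followed in HL60 cells labelled HK3-null and in their Cas9 controls. All 49 symbols were found among the 28051 named genes of the RNAseq files, and 46 of them reached a level at which they were tested. The members were taken apart by role into 4 transcription factors, 4 nucleic acid sensors and 41 effectors. In ATACseq, which measures how accessible chromatin is to a transposase, 19 of 8286 regions listed at least 1 member, and 16 members were listed in all.

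HL60 is an established human acute myeloid leukemia line of promyelocytic appearance that matures towards neutrophils under all-trans retinoic acid (ATRA), and HK3 is a hexokinase that is induced during myeloid maturation. Treatment lasted 36 h, in 1 µM ATRA or in the diluent DMSO at 0.01%, and cells were measured by RNAseq in 3 replicates per group (12 libraries) and by ATACseq in 2 replicates per group (8 libraries). The 4 groups were Cas9 expressing control cells in DMSO, the same controls in ATRA, HK3-null cells in DMSO and HK3-null cells in ATRA. The study made its knockout lines with a lentiviral Cas9 vector and puromycin selection, and grew them as single clones by limiting dilution. How the Cas9 expressing controls were made is not given in the sources used here. A single knockout label is shared by every HK3-null library, so more than 1 clone is not known to be among them, and a difference between the genotypes cannot be told apart from a difference between lines. The replicates are described as biological, yet p-values may speak only for the spread between cultures of these lines.

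Type I and type III interferons bind cell surface receptors whose JAK kinases phosphorylate STAT factors. STAT2 joins IRF9 in a complex that binds the interferon-stimulated response element (ISRE) of target promoters. Type II interferon acts on the gamma-activated site (GAS) and induces IRF1, a factor that can itself bind ISREs. The target genes encode sensors of foreign nucleic acid, further transcription factors such as IRF7, and effectors that degrade viral RNA, block translation, restrict entry and budding or modify proteins with ISG15. Retinoic acid is known to induce IRF1 and other members of this program in promyelocytic leukemia cells.

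Promoters of 8 members called the same way between the genotypes in both treatments are shown first, because interferon signalling acts on the ISRE. TRIM22, USP18 and GBP2 were called so too but had no matched promoter, and IFIT3 is not printed. RefSeq promoter sequence (GRCh38.p14) was matched for 39 of the 49 members, and each promoter ran from 250 bases before to 50 bases after the start site, 300 bases in all. The ISRE core was searched as GAAANNGAAA on both strands, where N is any base, and overlapping matches were allowed. At least 1 match was found in 23 of 39 member promoters (59.0%) and in 1255 of 35116 promoters of all genes (3.57%). The GAS core, TTCNNNGAA, was found in 7 of 39 member promoters (17.9%) and in 2689 of 35116 in all (7.66%). By genotype in ATRA, 12 of the 16 members with a promoter that were called lower in HK3-null held an ISRE core, against 7 of the 17 that were not called and 1 of the 3 called higher. These shares are descriptions of the letters at this spacing alone, not of binding.

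The sequences that follow are the 200 bases before the start site, 5′ to 3′ on the gene's own strand, for 6 members that were lower in HK3-null in DMSO and in ATRA (LGALS3BP, OAS3, OAS1, IFIT1, ISG15 and IFI6) and for 2 that were higher in both (XAF1 and IFI30). Capitals mark ISRE core matches. Their positions are chr17:78979924-78980123 (minus strand) for LGALS3BP, chr12:112938274-112938473 for OAS3, chr12:112906762-112906961 for OAS1, chr10:89392423-89392622 for IFIT1, chr1:1013297-1013496 for ISG15, chr1:27672193-27672392 (minus strand) for IFI6, chr17:6755846-6756045 for XAF1 and chr19:18173613-18173812 for IFI30. Genes without a strand named here lie on the plus strand. The XAF1 window lies inside the XAF1 span given below, so it precedes an internal start site and not the edge of that span.
LGALS3BP: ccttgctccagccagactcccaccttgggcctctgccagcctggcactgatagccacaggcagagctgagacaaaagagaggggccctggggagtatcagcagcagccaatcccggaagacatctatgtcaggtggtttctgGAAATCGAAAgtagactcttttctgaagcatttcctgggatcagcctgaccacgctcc
OAS3: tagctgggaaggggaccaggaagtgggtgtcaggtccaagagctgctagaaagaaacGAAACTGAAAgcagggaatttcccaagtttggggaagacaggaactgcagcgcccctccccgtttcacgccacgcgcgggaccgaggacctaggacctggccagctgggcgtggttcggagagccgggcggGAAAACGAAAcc
OAS1: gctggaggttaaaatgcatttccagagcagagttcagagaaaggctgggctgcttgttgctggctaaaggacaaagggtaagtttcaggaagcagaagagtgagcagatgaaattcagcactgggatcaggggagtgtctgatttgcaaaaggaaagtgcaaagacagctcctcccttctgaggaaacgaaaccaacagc
IFIT1: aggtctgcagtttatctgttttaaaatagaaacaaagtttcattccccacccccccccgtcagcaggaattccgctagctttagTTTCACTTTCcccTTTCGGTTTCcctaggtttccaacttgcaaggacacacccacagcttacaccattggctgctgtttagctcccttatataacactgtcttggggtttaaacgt
ISG15: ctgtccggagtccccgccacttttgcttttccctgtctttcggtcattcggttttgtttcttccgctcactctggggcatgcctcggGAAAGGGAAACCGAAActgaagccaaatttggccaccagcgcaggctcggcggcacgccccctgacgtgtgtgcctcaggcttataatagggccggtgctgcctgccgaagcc
IFI6: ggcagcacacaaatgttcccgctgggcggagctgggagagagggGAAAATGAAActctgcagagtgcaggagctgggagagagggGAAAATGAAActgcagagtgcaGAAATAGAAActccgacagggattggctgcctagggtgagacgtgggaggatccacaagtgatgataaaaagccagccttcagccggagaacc
XAF1: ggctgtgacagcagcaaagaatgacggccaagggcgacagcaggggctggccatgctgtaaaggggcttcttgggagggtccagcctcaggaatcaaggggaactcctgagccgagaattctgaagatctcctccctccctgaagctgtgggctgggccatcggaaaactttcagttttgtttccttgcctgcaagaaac
IFI30: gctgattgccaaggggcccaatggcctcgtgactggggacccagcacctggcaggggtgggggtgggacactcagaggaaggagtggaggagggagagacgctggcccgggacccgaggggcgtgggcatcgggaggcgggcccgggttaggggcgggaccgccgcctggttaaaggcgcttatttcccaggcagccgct

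The IFI6 promoter held 3 matches, beginning 156, 115 and 93 bases before the start site. OAS3, IFIT1 and ISG15 held 2 each, and the 2 of ISG15 overlapped. LGALS3BP held 1 match, which began 58 bases before the start site. No match to these letters was found in this window for OAS1, XAF1 or IFI30. The search fixed 2 bases between the GAAA stretches, so the gaaacgaaa in the printed OAS1 sequence was not counted. The same letters also went uncounted in the XAF1 promoter, where they run past the end of the printed stretch, and in the RSAD2 promoter.

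The libraries were of like size, with 29056349 to 31549781 normalized counts each, where a normalized count is a read count that the authors scaled between libraries. RNA of HK3 itself was no lower under the HK3-null label. It stood at 90, 65 and 105 normalized counts in Cas9 control and at 344, 302 and 346 in HK3-null in DMSO, and at 1305, 1298 and 1850 against 1384, 1285 and 1975 in ATRA, so the label was not checked by this RNA. Summed levels of 9 promyelocyte markers were 561544 to 882050 in all 12 libraries, most of it MPO. In DMSO, 2 of the 9 were called lower in HK3-null (CTSG at -1.78 and KIT at -1.35 on the log2 scale) and 0 higher. Summed levels of 11 neutrophil maturation markers were 2969 to 3108 in Cas9 control and 35571 to 37436 in HK3-null in DMSO, and 17967 to 18503 against 114235 to 118760 in ATRA. Those of 8 eosinophil markers were 9005 to 9944 against 165448 to 173313 in DMSO and 1414 to 1550 against 45952 to 55030 in ATRA. Those of 7 monocyte markers were 8041 to 8722 against 45409 to 47276 and 1970 to 2063 against 26130 to 29261. PRG2 held most of the eosinophil sum except in Cas9 control ATRA, and LYZ most of the monocyte sum. Gene by gene, 11 of 11 neutrophil, 5 of 5 tested monocyte and 6 of 8 eosinophil markers were called higher in HK3-null in DMSO. In ATRA 10, 4 and 7 were, and the shares over all tested genes were 11.5% and 12.4%. CSF1R was called lower in ATRA (-1.03), and RNASE3 was lower in DMSO (-0.77). The part of these marker differences in the interferon-stimulated genes was not tested, and fewer cells of a kind cannot be told apart from less RNA per cell in bulk samples. The Cas9 control DMSO replicate 1 stood apart from the others on the third principal component (3.89% of the variance). Results that change without it are named where they stand.

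Read over the whole list, the middle of the interferon-stimulated genes lay lower in HK3-null than in Cas9 control under either treatment, and higher after ATRA in both genotypes, although single members went against this. The median over the 46 tested members of log2(normalized count + 1), the scale of all fits, was 7.03 to 7.40 in the Cas9 control DMSO libraries and 8.09 to 8.18 in Cas9 control ATRA. It was 6.17 to 6.27 in HK3-null DMSO and 7.31 to 7.37 in HK3-null ATRA. Within a treatment the genotypes did not overlap in this median, and HK3-null ATRA lay within the range of Cas9 control DMSO. GBP1 (0 to 12 normalized counts), IFI27 (0 to 9) and IFI44L (0 to 2) were too low to test. Since a member could pass the filter on low values through the group in which it was high, the counts given below describe the tested members and not the list. OAS2, OASL, ISG20, RSAD2 and IFI44 reached it in Cas9 control ATRA alone, so a contrast with that group had to differ for them, and GBP4 and IFIT5 reached it in the ATRA groups alone.

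**Figure D1:**
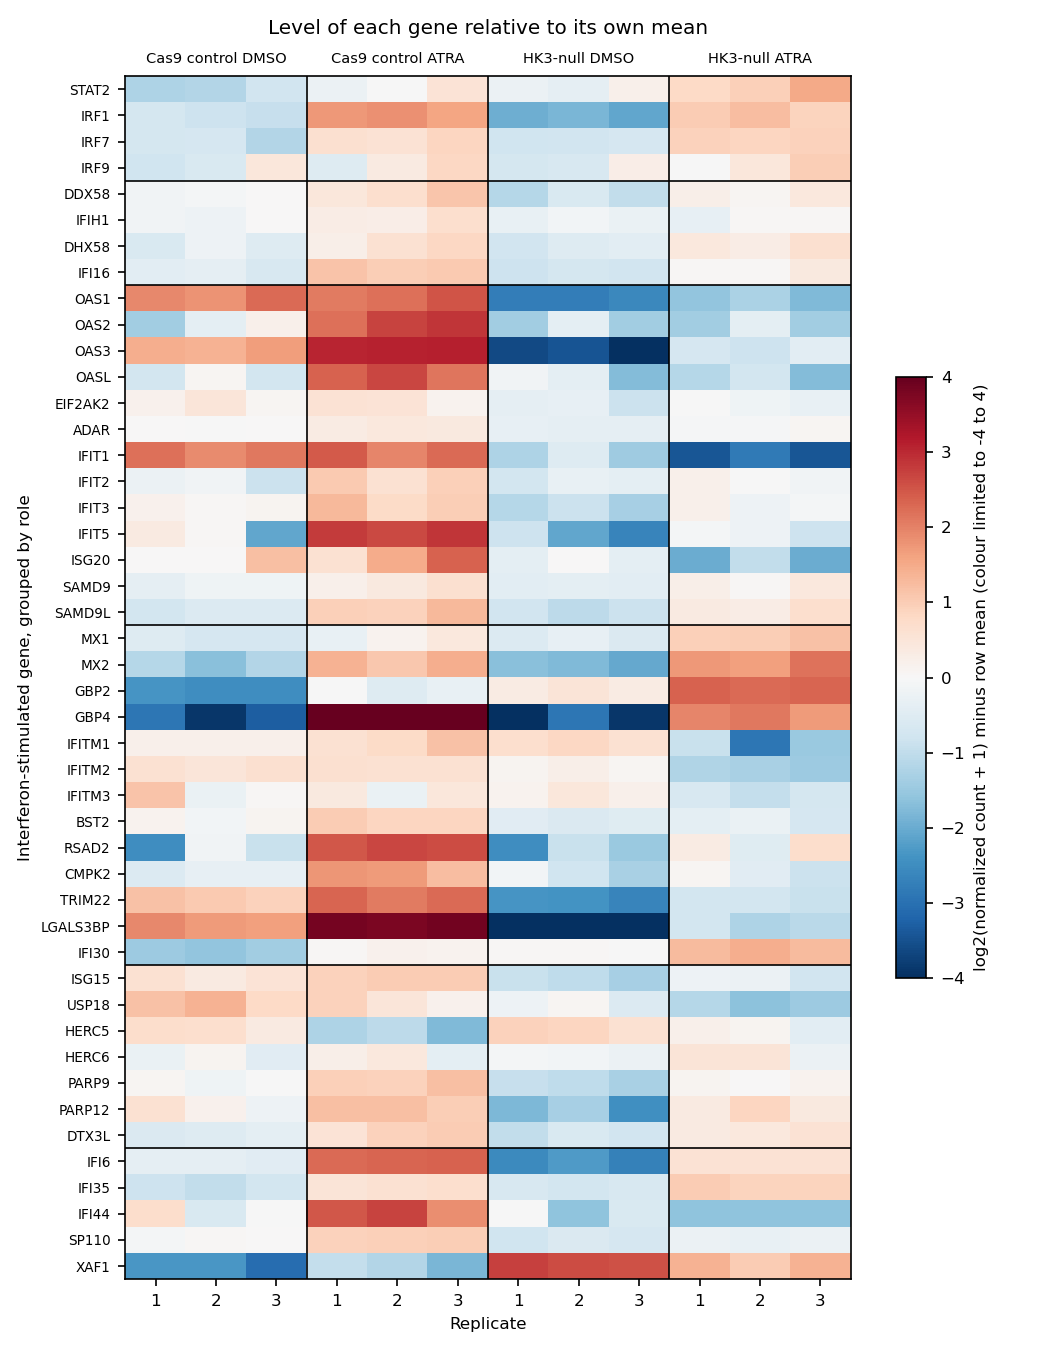
Each row is 1 of the 46 tested interferon-stimulated genes and each column 1 of the 12 RNAseq libraries, with colour giving log2(normalized count + 1) minus the row's mean. Rows are grouped from top to bottom as transcription factors, sensors, RNA-directed effectors, membrane and GTPase effectors, the ISG15 and ADP-ribose system, and others. LGALS3BP, OAS1, OAS3, IFIT1 and TRIM22 are red in the 6 Cas9 control columns and blue in the 3 HK3-null DMSO columns, XAF1 shows the opposite, and GBP4 is dark blue or blue in DMSO and red in ATRA in both genotypes.

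HK3-null cells were compared with Cas9 controls in DMSO to ask how the program stood before any treatment. A gene is said to have passed at a Benjamini-Hochberg adjusted p under 0.05 in limma over 13256 genes, and to be called when it also differed at least 2-fold. Of the 46 tested members, 3 were called higher (GBP2, IFI30 and XAF1), where 11.5% of all tested genes were called higher. In the other direction 12 were called lower, 26.1% of the tested members, where 8.75% of all tested genes were. The median log2 fold change of the members was -0.43, against 0.00 over all tested genes, and 36 of the 46 lay below 0.

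In ATRA, 4 members were called higher in HK3-null (the same 3 and HERC5), with 12.4% of all tested genes called higher. Another 21 were called lower, 45.7% of the tested members, beside 10.6% of all tested genes. The median log2 fold change was -0.92, against 0.01 over all tested genes. Without the 5 members that reached the filter in Cas9 control ATRA alone, 16 of 41 were called lower (39.0%) and the median was -0.67. Of the 12 called lower in DMSO, 9 were also called lower in ATRA (OAS1, OAS3, IFIT1, IFIT3, TRIM22, LGALS3BP, ISG15, USP18 and IFI6), and 12 were called lower in ATRA alone of the 2 contrasts. Both contrasts compare the same 2 lines.

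**Figure D2:**
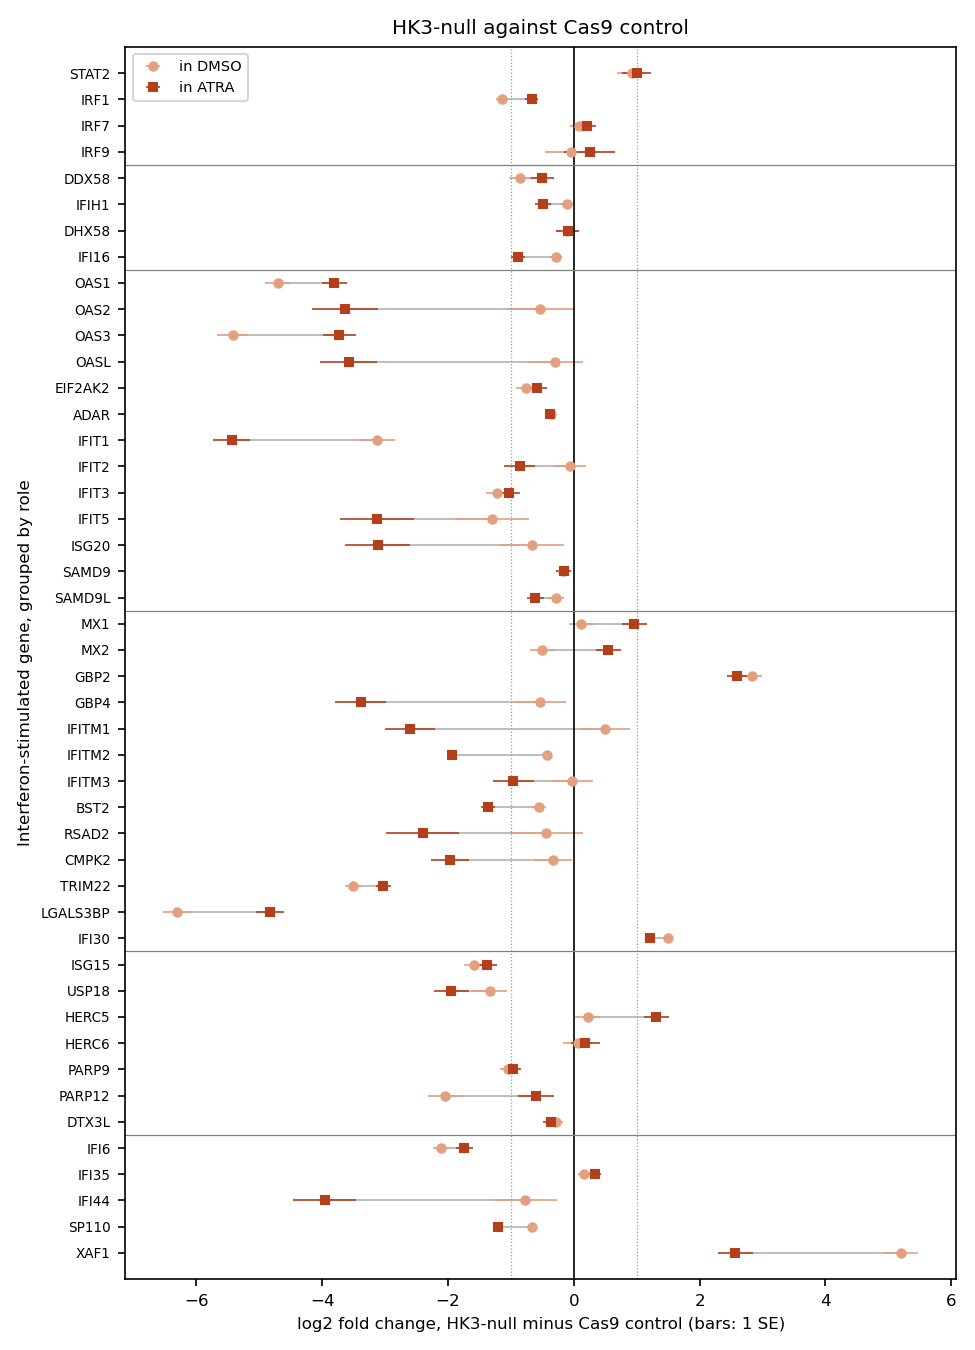
Each row is a tested member, with the log2 fold change of HK3-null over Cas9 control in DMSO (circles) and in ATRA (squares), bars of 1 SE from the limma fit, and dotted lines at 2-fold. LGALS3BP lies furthest to the left in DMSO at -6.31 and IFIT1 in ATRA at -5.44, XAF1 lies furthest to the right in DMSO at 5.20, and the 8 transcription factors and sensors at the top lie between -1.14 and 1.00.

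Transcription factors and sensors were looked at apart from effectors. Of the 8, only IRF1 was called in DMSO. In ATRA none reached both the adjusted p and the 2-fold change, although 5 passed, with STAT2 higher and IRF1, DDX58, IFIH1 and IFI16 lower. Of the 38 tested effectors, 3 were called higher in DMSO (7.89%, beside 11.5% of all tested genes) and 11 lower (28.9%, beside 8.75%). In ATRA 4 were called higher (10.5%, beside 12.4%) and 21 lower (55.3%, beside 10.6%), the same 5 members among the 21. Their median log2 fold changes were -0.52 and -1.28, beside -0.11 and -0.30 for the factors and sensors. The 5 members that reached the filter in Cas9 control ATRA alone are all effectors and had to be lower in HK3-null in ATRA. The effector share and median in ATRA were thus partly set by the filter. The difference between the 2 sets of genes was not tested.

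**Figure D3:**
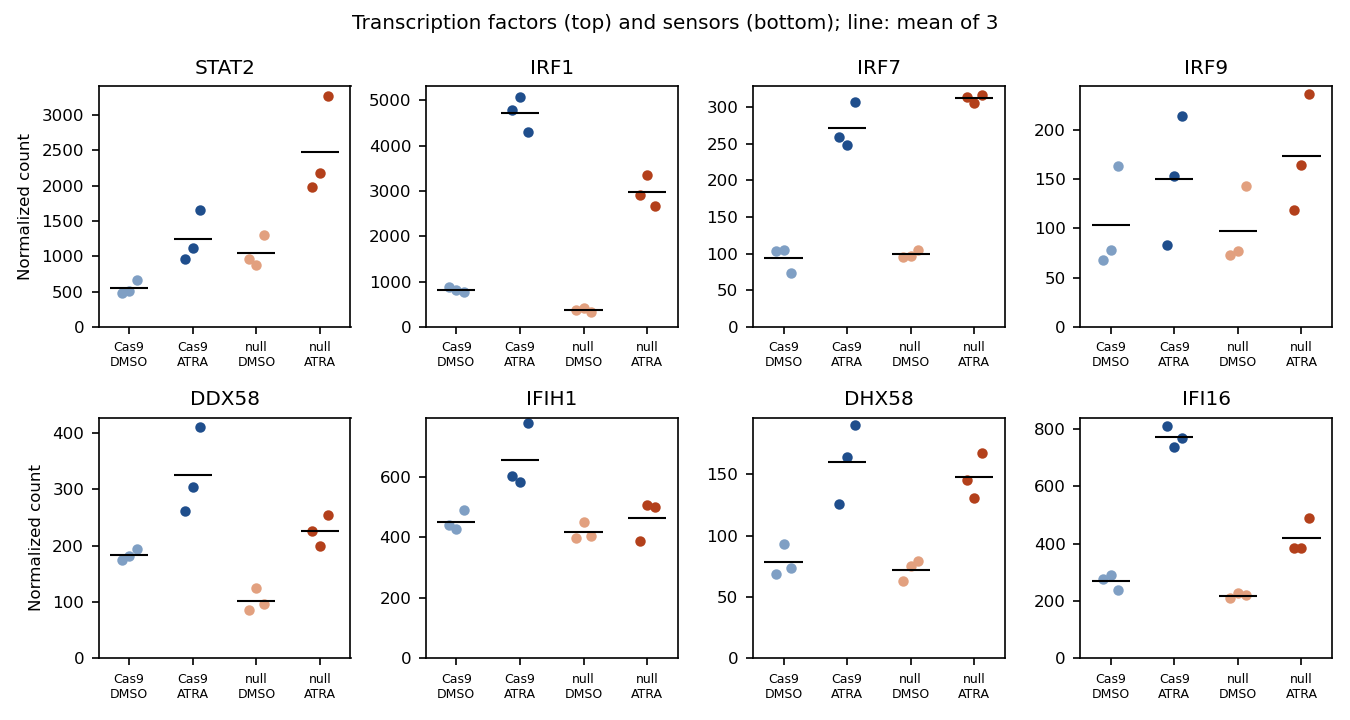
Normalized counts of the 4 transcription factors (top) and 4 sensors (bottom) in the 3 libraries of each group, with a black line at the mean and a separate axis from 0 for each gene. STAT2 is higher and IRF1 lower in HK3-null in both treatments, all 8 genes have a higher mean in ATRA, and replicate 3 is the highest of its group in all 4 groups for STAT2 and IRF9.

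STAT2 (chr12:56341597-56360107, RefSeq GRCh38.p14) supplies the transactivating subunit of the ISRE-binding complex. It stood at 486, 503 and 668 normalized counts in Cas9 control DMSO, 955, 1120 and 1655 in Cas9 control ATRA, 960, 878 and 1305 in HK3-null DMSO, and 1975, 2176 and 3273 in HK3-null ATRA. All HK3-null libraries lay above all Cas9 control libraries of the same treatment. The log2 fold change between genotypes was 0.92 ± 0.23 (SE) in DMSO (adjusted p = 0.00465) and 1.00 ± 0.23 in ATRA (adjusted p = 0.0024), at or just under the 2-fold mark. ATRA raised it by 1.14 in Cas9 control and 1.22 in HK3-null on the log2 scale, and the difference between these responses was 0.08 ± 0.33 (adjusted p = 0.929).

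IRF1 (chr5:132481609-132490773) is the factor induced by type II interferon. Its levels were 881, 815 and 759 normalized counts in Cas9 control DMSO and 372, 406 and 337 in HK3-null DMSO, with no overlap. Under ATRA the counts rose to 4792, 5082 and 4294 (Cas9 control) and to 2922, 3348 and 2667 (HK3-null). IRF1 fell by 1.14 on the log2 scale between genotypes in DMSO (SE 0.10, adjusted p = 9.78e-07) and by 0.67 in ATRA (SE 0.10, adjusted p = 9.13e-05). Genes of chromosome 5 had a median log2 fold change of -0.749 in DMSO and -0.774 in ATRA between these lines, and with that median subtracted IRF1 stood at -0.39 in DMSO (adjusted p = 0.0064), no longer called, and at 0.11 in ATRA (adjusted p = 0.389). The ATRA response was 2.53 in Cas9 control and 3.00 in HK3-null, the strongest of the 8 genes in both. The difference of 0.47 ± 0.14 did not pass (adjusted p = 0.0589) but did pass with the replicate number as a block (adjusted p = 0.000795).

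IRF7 (chr11:612555-615950), the factor that amplifies interferon production, did not pass between genotypes. It stood at 103, 105 and 74 normalized counts in Cas9 control DMSO against 95, 97 and 105 in HK3-null DMSO, and at 259, 249 and 307 against 314, 306 and 317 in ATRA. The genotype difference was 0.09 ± 0.15 in DMSO and 0.21 ± 0.15 in ATRA on the log2 scale, whereas ATRA raised IRF7 by 1.53 and 1.65 in the 2 genotypes.

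IRF9 (chr14:24161265-24166565), the DNA-binding subunit of the ISRE complex, had the largest standard errors of the 8 factors and sensors. Its levels were 68, 78 and 163 normalized counts in Cas9 control DMSO, 83, 153 and 214 in Cas9 control ATRA, 73, 77 and 143 in HK3-null DMSO and 119, 164 and 236 in HK3-null ATRA. Replicate 3 was the highest in each group. The changes under ATRA of 0.55 ± 0.41 and 0.83 ± 0.41 did not pass (adjusted p = 0.311 and 0.111), but with the replicate number as a block they passed (adjusted p = 0.0075 and 0.00028). Between genotypes the change was -0.04 in DMSO and 0.25 in ATRA, and neither passed.

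Among the sensors, DDX58, which encodes the RNA helicase RIG-I, stood at 175, 182 and 194 normalized counts in Cas9 control DMSO and 86, 125 and 96 in HK3-null DMSO. In ATRA it stood at 262, 304 and 411 against 226, 200 and 254. It fell by 0.85 between genotypes in DMSO (SE 0.18, adjusted p = 0.00132) and by 0.50 in ATRA (adjusted p = 0.0279), a change that did not pass without Cas9 control ATRA replicate 3 (-0.32, adjusted p = 0.127), HK3-null ATRA replicate 1 (adjusted p = 0.0591) or HK3-null ATRA replicate 2 (adjusted p = 0.102). ATRA raised it by 0.80 in Cas9 control and 1.15 in HK3-null.

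IFIH1, the sensor MDA5 of long double-stranded RNA, was at 440, 426 and 489 normalized counts in Cas9 control DMSO and 399, 449 and 405 in HK3-null DMSO. After ATRA it was at 603, 583 and 776 in Cas9 control and 388, 507 and 499 in HK3-null, so that the genotypes overlapped in DMSO and not in ATRA. Its ATRA response was 0.52 in Cas9 control (adjusted p = 0.00635) and 0.15 in HK3-null (adjusted p = 0.381), and the difference of -0.38 ± 0.19 did not pass (adjusted p = 0.253).

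DHX58, which encodes LGP2, a helicase that tunes MDA5 signaling, was at 69, 93 and 74 normalized counts in Cas9 control DMSO, 63, 75 and 79 in HK3-null DMSO, 126, 164 and 190 in Cas9 control ATRA and 145, 131 and 167 in HK3-null ATRA. The genotypes overlapped in both treatments. ATRA raised it by 1.01 in Cas9 control and by 1.02 in HK3-null, with a difference of 0.01 ± 0.26 between them.

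IFI16, a sensor of DNA, was the 1 factor or sensor whose ATRA response differed between the genotypes in the fit without the replicate block. It rose from 276, 291 and 240 to 810, 737 and 769 normalized counts in Cas9 control, and from 209, 228 and 220 to 384, 386 and 490 in HK3-null. The responses were 1.52 and 0.93 on the log2 scale, a difference of -0.59 ± 0.16 (adjusted p = 0.0352). Of the 12 fits leaving out a library, that call held only in those without Cas9 control DMSO replicate 2 (adjusted p = 0.0403) or HK3-null ATRA replicate 3 (adjusted p = 0.00881). In ATRA, IFI16 fell by 0.89 between genotypes (SE 0.11, adjusted p = 2.13e-05), with no overlap. In DMSO the fall of 0.29 (adjusted p = 0.044) was kept, of the 12 fits leaving out a library, only in those without Cas9 control DMSO replicate 3 or any 1 of the HK3-null ATRA libraries.

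The oligoadenylate synthetases bind double-stranded RNA and make an oligoadenylate messenger that leads to RNA decay. OAS1, OAS3 and OAS2 lie beside each other on chromosome 12 (OAS1 at chr12:112906962-112933219, OAS3 at chr12:112938474-112973251, OAS2 at chr12:112978519-113011723). OAS1 was at 181, 165 and 231 normalized counts in Cas9 control DMSO and at 6, 6 and 7 in HK3-null DMSO, and at 204, 219 and 273 against 15, 19 and 13 in ATRA. It fell by 4.71 (SE 0.20, adjusted p = 1.58e-09) and 3.81 (adjusted p = 9.22e-09) on the log2 scale. The ATRA responses of 0.27 and 1.17 differed by 0.90, which did not pass (adjusted p = 0.0711) except with the replicate number as a block (adjusted p = 0.0328).

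OAS3 showed the same order of groups. It was at 501, 480 and 582 normalized counts in Cas9 control DMSO and 14, 16 and 6 in HK3-null DMSO, and at 1525, 1550 and 1594 against 114, 102 and 136 in ATRA. The genotype changes were -5.42 ± 0.26 in DMSO (adjusted p = 4.27e-09) and -3.73 ± 0.26 in ATRA (adjusted p = 9.58e-08). ATRA raised OAS3 in both genotypes, by 1.58 in Cas9 control and 3.28 in HK3-null, and the difference of 1.69 ± 0.37 passed (adjusted p = 0.0116), from a far lower starting level in HK3-null.

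OAS2 and OASL were low throughout and were detected mainly in Cas9 control ATRA. OAS2 had 11, 16 and 18 normalized counts there and 0 to 2 in the 9 other libraries. OASL, a catalytically inactive relative, had 33, 41 and 28 there and 1 to 6 elsewhere. Since this group alone brought them past the filter, their levels are given as a description. The OAS2 calls also rested on the value given to 0, and with the deposited log2 values neither its ATRA response in Cas9 control (adjusted p = 0.18) nor the difference between responses (adjusted p = 0.533) passed. That difference was lost without HK3-null DMSO replicate 2 as well (adjusted p = 0.0534).

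The IFIT proteins bind foreign RNA ends and hold back their translation. IFIT1 (chr10:89392623-89406487) was at 97, 78 and 92 normalized counts in Cas9 control DMSO and 116, 81 and 101 in Cas9 control ATRA. In HK3-null it was at 8, 14 and 7 in DMSO and at 1, 2 and 1 in ATRA. IFIT1 thus fell under ATRA in HK3-null, by 2.16 on the log2 scale (SE 0.29, adjusted p = 4.14e-05), whereas the change in Cas9 control was 0.15 (adjusted p = 0.714). The difference between the responses was -2.31 ± 0.40 (adjusted p = 0.00319). All HK3-null ATRA libraries were under 3 normalized counts, so the sizes of this fall and this difference depend on the 1 added to each count.

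IFIT3 and IFIT5 differed from IFIT1 in that their mean was higher in ATRA in both genotypes. IFIT3 was at 128, 117 and 122 normalized counts in Cas9 control DMSO and 51, 62 and 44 in HK3-null DMSO, and at 279, 192 and 225 against 131, 98 and 108 in ATRA. IFIT5 was at 15, 12 and 2 in Cas9 control DMSO, 87, 77 and 90 in Cas9 control ATRA, 6, 2 and 1 in HK3-null DMSO and 11, 10 and 6 in HK3-null ATRA. IFIT3 passed and was called lower in both treatments (-1.22 and -1.03), and IFIT5 in ATRA (-3.13 ± 0.59, adjusted p = 0.000518). With the replicate number as a block IFIT5 was also called lower in DMSO (-1.30, adjusted p = 0.017 against 0.0786 without it) and higher under ATRA in HK3-null (1.49, adjusted p = 0.00865 against 0.0519), and its responses differed (-1.84, adjusted p = 0.0453 against 0.214). IFIT2, at 12 to 20 normalized counts in DMSO, passed in ATRA at -0.86 (adjusted p = 0.00977) and did not pass in DMSO. IFIT1, IFIT2 and IFIT3 overlap the LIPA gene on the annotation, and whether the counting used strand is not given in the sources used here.

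Of the other RNA-directed effectors, ADAR, EIF2AK2, SAMD9 and SAMD9L differed by less than 2-fold between genotypes, and ISG20 was low. ADAR, which deaminates adenosine in double-stranded RNA, was at 10986, 10628 and 10883 normalized counts in Cas9 control DMSO and 8597, 8383 and 8406 in HK3-null DMSO, a small but tight fall of 0.36 (SE 0.05, adjusted p = 3.81e-05), with -0.38 in ATRA. EIF2AK2, the kinase PKR that stops translation, changed by -0.76 and -0.59 and passed in both treatments, and its ATRA change of 0.35 in HK3-null passed only in the blocked fit (adjusted p = 0.00414 against 0.0961). SAMD9 did not pass in either, and SAMD9L, another antiviral factor, passed in ATRA at -0.61 (adjusted p = 0.0017) and in DMSO in the blocked fit alone (-0.29, adjusted p = 0.0209 against 0.0842). ISG20, an exonuclease on chromosome 15, had 5, 10 and 19 normalized counts in Cas9 control ATRA and 0, 1 and 0 in HK3-null ATRA, and it was called lower there. The difference between its responses passed in the blocked fit (adjusted p = 0.0301 against 0.0544). The median log2 fold change of chromosome 15 in that contrast was -0.957.

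Of the GTPase and membrane effectors, LGALS3BP (chr17:78971255-78979923), which encodes a secreted galectin-binding glycoprotein, differed most. It was at 654, 564 and 540 normalized counts in Cas9 control DMSO and at 9, 7 and 4 in HK3-null DMSO. In ATRA it was at 2468, 2337 and 2519 against 103, 73 and 81. The log2 fold changes between genotypes were -6.31 ± 0.22 (adjusted p = 2.23e-10) and -4.83 ± 0.22 (adjusted p = 2.15e-09). ATRA raised it by 2.06 and by 3.54 in the 2 genotypes, a difference of 1.48 ± 0.31 (adjusted p = 0.00873) that did not pass when 8 was added to the counts in place of 1 (0.63, adjusted p = 0.0829).

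TRIM22 (chr11:5689790-5710863), a ubiquitin ligase that restricts viruses, was at 588, 541 and 499 normalized counts in Cas9 control DMSO and 50, 49 and 41 in HK3-null DMSO, and at 1329, 1120 and 1273 against 158, 156 and 140 in ATRA. The genotype changes were -3.51 ± 0.12 and -3.03 ± 0.12 (adjusted p = 1.79e-10 and 6.41e-10). ATRA raised it by 1.19 and 1.68, and the difference of 0.49 ± 0.17 did not pass (adjusted p = 0.0888) but did with the replicate number as a block (adjusted p = 0.0164).

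The guanylate-binding proteins, large GTPases that coat intracellular pathogens, went opposite ways. GBP2 was higher in HK3-null, at 89, 103 and 90 normalized counts against 13, 12 and 12 in DMSO and at 372, 344 and 361 against 70, 49 and 58 in ATRA (2.83 ± 0.16 and 2.60 ± 0.16, adjusted p = 1.51e-08 and 2.78e-08). GBP4 (chr1:89181144-89198942) was at 0 to 3 normalized counts in all 6 DMSO libraries. After ATRA it was at 1125, 1162 and 1206 in Cas9 control and at 112, 126 and 94 in HK3-null, which were called apart (-3.39 ± 0.41, adjusted p = 1.29e-05), although not when fitted on the values as deposited (-3.40, adjusted p = 0.205). Its ATRA responses of 8.66 and 5.79 were the largest of the list in both genotypes. Because they start from a few counts, their difference of -2.86 ± 0.58 (adjusted p = 0.00788) depends on the value given to 0 and was 0.25 (adjusted p = 0.98) when fitted on the values as deposited, where the log2 of 0.001 stands for 0.

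The MX genes encode dynamin-like GTPases that block viral nucleocapsids. MX2 was at 44, 30 and 43 normalized counts in Cas9 control DMSO, 263, 210 and 272 in Cas9 control ATRA, 30, 28 and 23 in HK3-null DMSO and 333, 312 and 452 in HK3-null ATRA. Its genotype change was -0.50 in DMSO (adjusted p = 0.048) and 0.55 in ATRA (adjusted p = 0.0311). Of the 12 fits leaving out a library, the DMSO change was kept only in those without Cas9 control DMSO replicate 2, HK3-null ATRA replicate 3 or HK3-null DMSO replicate 1, and the ATRA change was lost without Cas9 control ATRA replicate 2 (adjusted p = 0.122) or HK3-null ATRA replicate 3 (adjusted p = 0.134). The ATRA response, 2.65 in Cas9 control and 3.70 in HK3-null, differed by 1.05 ± 0.28 (adjusted p = 0.0346), a call that, of the 12 fits leaving out a library, was kept only in those without Cas9 control ATRA replicate 3, Cas9 control DMSO replicate 2, HK3-null ATRA replicate 2 or HK3-null DMSO replicate 1. MX1, at 34 to 43 normalized counts in all DMSO libraries, was at 44, 60 and 74 in Cas9 control ATRA and 106, 110 and 126 in HK3-null ATRA, and passed there at 0.96 (adjusted p = 0.000961). Its responses differed by 0.83, which passed only in the blocked fit (adjusted p = 0.0361 against 0.0835).

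The IFITM proteins, which block fusion of viral envelopes, fell under ATRA in HK3-null and did not pass in Cas9 control. IFITM2 was at 1395, 1276 and 1437 normalized counts in Cas9 control DMSO, 1426, 1416 and 1396 in Cas9 control ATRA, 995, 1079 and 980 in HK3-null DMSO and 398, 372 and 333 in HK3-null ATRA. Its response was 0.05 in Cas9 control and -1.47 in HK3-null, a difference of -1.52 ± 0.11 (adjusted p = 6.76e-06). IFITM1 and IFITM3 were low, at 2 to 49 and 16 to 71 normalized counts over all libraries. The HK3-null responses of IFITM1 (-2.47, adjusted p = 0.000211) and IFITM3 (-1.04, adjusted p = 0.0195) were called, the latter lost without HK3-null ATRA replicate 2 (adjusted p = 0.0629) or HK3-null DMSO replicate 2 (adjusted p = 0.0668). The 3 IFITM genes are near-identical neighbours on chromosome 11, so the share of reads given to each is uncertain.

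BST2, also called tetherin, holds budding virions at the membrane. It was at 632, 533 and 628 normalized counts in Cas9 control DMSO, 422, 389 and 410 in HK3-null DMSO, 1163, 1056 and 1040 in Cas9 control ATRA and 438, 478 and 361 in HK3-null ATRA. It rose by 0.86 under ATRA in Cas9 control (adjusted p = 4.79e-05), whereas the HK3-null change was 0.06 (adjusted p = 0.70), and the difference of -0.81 ± 0.16 passed (adjusted p = 0.0057).

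CMPK2 and RSAD2 are neighbours that encode a nucleotide kinase and viperin, which makes a chain-terminating nucleotide. CMPK2 was at 51, 60 and 59 normalized counts in Cas9 control DMSO and 255, 245 and 177 in Cas9 control ATRA, but at 69, 43 and 30 in HK3-null DMSO and 79, 54 and 41 in HK3-null ATRA. The responses of 1.96 and 0.32 differed by -1.64 ± 0.42 (adjusted p = 0.0267), a call that, of the 12 fits leaving out a library, was kept only in those without Cas9 control ATRA replicate 3, Cas9 control DMSO replicate 2 or 3, HK3-null ATRA replicate 1 or HK3-null DMSO replicate 3. RSAD2 had 30, 34 and 33 counts in Cas9 control ATRA and 6, 3 and 8 in HK3-null ATRA, and this difference did not pass with the deposited log2 values (adjusted p = 0.499). IFI30, a lysosomal thiol reductase of antigen processing, was higher in HK3-null, with 790, 778 and 743 normalized counts against 277, 253 and 286 in DMSO (1.5 ± 0.08, adjusted p = 1.07e-08) and 1808, 2090 and 1823 against 789, 855 and 830 in ATRA (1.21 ± 0.08).

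In the ISG15 and ADP-ribose system, 4 of 7 members were called lower in DMSO (57.1%, beside 8.75% of all tested genes) and 2 in ATRA (28.6%, beside 10.6%), where 1, HERC5, was called higher (14.3%, beside 12.4%). ISG15, the ubiquitin-like modifier, was at 275, 234 and 263 normalized counts in Cas9 control DMSO against 97, 88 and 71 in HK3-null DMSO, and at 340, 370 and 364 against 158, 152 and 106 in ATRA (-1.59 ± 0.16 and -1.38 ± 0.16). USP18, which removes ISG15 from proteins and dampens the receptor, was at 37 to 56 against 14 to 22 in DMSO and 24 to 41 against 6 to 9 in ATRA. Its changes of -1.34 and -1.95 were both called.

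PARP9 and DTX3L, whose products form a complex that modifies ubiquitin, are neighbours on chromosome 3 and did not change to the same extent between genotypes. PARP9 passed at -1.05 in DMSO and -0.96 in ATRA, whereas DTX3L did not pass in DMSO (-0.29, adjusted p = 0.0622) except in the blocked fit (adjusted p = 0.00251). In ATRA it passed at -0.37 (adjusted p = 0.0183), but not without Cas9 control ATRA replicate 2 (adjusted p = 0.0668), Cas9 control ATRA replicate 3 (adjusted p = 0.0772) or HK3-null ATRA replicate 1 (adjusted p = 0.0651). PARP12, an antiviral mono-ADP-ribosyltransferase, was at 98, 72 and 56 normalized counts in Cas9 control DMSO and 18, 25 and 11 in HK3-null DMSO, and at 151, 151 and 128 against 83, 119 and 84 in ATRA. It fell by 2.04 in DMSO (adjusted p = 4.84e-05) and did not pass in ATRA (-0.60, adjusted p = 0.0836) except in the blocked fit (adjusted p = 0.0187). The difference between its ATRA responses of 0.95 and 2.39 was 1.44 ± 0.40 (adjusted p = 0.0397). Of the 12 fits leaving out a library, it passed only in those without Cas9 control DMSO replicate 3 or HK3-null DMSO replicate 2.

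HERC5, the ligase that attaches ISG15, was the 1 member called lower under ATRA in Cas9 control. It went from 578, 574 and 462 to 152, 171 and 105 normalized counts there and from 676, 653 and 548 to 414, 386 and 265 in HK3-null. The falls were 1.93 and 0.84 on the log2 scale, and the difference of 1.09 ± 0.28 passed (adjusted p = 0.0277). That call was lost without Cas9 control DMSO replicate 1 or 2, HK3-null ATRA replicate 1 or 2, or HK3-null DMSO replicate 2 or 3 (adjusted p = 0.0538 to 0.0722). HERC6, its paralog, did not pass in any of the 4 contrasts except under ATRA in HK3-null in the blocked fit (0.40, adjusted p = 0.013).

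Among the remaining members, IFI6 (chr1:27666064-27672192), a mitochondrial and ER-resident survival factor, was at 85, 86 and 79 normalized counts in Cas9 control DMSO and 18, 22 and 16 in HK3-null DMSO, and at 529, 553 and 569 against 165, 163 and 163 in ATRA. It fell by 2.11 and 1.74 between genotypes and rose by 2.71 and 3.08 under ATRA. SP110, a nuclear body protein, was at 986, 1006 and 1045 in Cas9 control ATRA and 442, 429 and 445 in HK3-null ATRA, and its ATRA responses of 0.96 and 0.42 differed by -0.54 ± 0.11 (adjusted p = 0.00847). IFI44 had 16, 19 and 10 counts in Cas9 control ATRA and 0 in all 3 HK3-null ATRA libraries, at least 5.0-fold lower when each HK3-null library is set to a floor of 3 counts.

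XAF1 (chr17:6755447-6775647), which antagonizes the caspase inhibitor XIAP, went against the list. It was at 4, 4 and 2 normalized counts in Cas9 control DMSO and 12, 10 and 6 in Cas9 control ATRA, but at 165, 153 and 144 in HK3-null DMSO and 64, 49 and 64 in HK3-null ATRA. The genotype changes were 5.20 ± 0.28 (adjusted p = 1.2e-08) and 2.57 ± 0.28 (adjusted p = 5.43e-06). It was the 1 member called in opposite directions by ATRA, 1.25 in Cas9 control (adjusted p = 0.00344) and -1.38 in HK3-null (adjusted p = 0.00132), and the difference of -2.62 ± 0.40 passed (adjusted p = 0.00128).

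The response to ATRA was then read over the list in each genotype. In Cas9 control 25 members were called higher (54.3% of those tested), beside 7.26% of all tested genes, and 1 was called lower, beside 3.19%. In HK3-null 22 were called higher (47.8%), beside 8.83%, and 7 were called lower (15.2%), beside 6.51%. The median log2 changes were 1.11 and 0.97, against 0.00 and 0.01 over all tested genes. The HK3-null median was 1.02 when IFI44, at or under the floor in both treatments, was left out. Without the 5 members that reached the filter in Cas9 control ATRA alone, 21 of 41 were called higher in each genotype (51.2%). Called lower were then 1 in Cas9 control and 6 in HK3-null, and the medians were 1.01 and 1.09. GBP4 and IFIT5 are still among the 41, although they reached the filter in the ATRA groups alone and so had to be higher in ATRA. Of all tested members, 17 were called higher in both genotypes, among them STAT2, IRF1, IRF7, DHX58, OAS3, MX2, GBP2, GBP4, TRIM22, LGALS3BP, IFI30 and IFI6. By role, 5 of the 8 factors and sensors were called higher in each genotype (STAT2, IRF1, IRF7 and DHX58 in both, with IFI16 in Cas9 control and DDX58 in HK3-null), and none was called lower. Of the 38 tested effectors, those 5 members included, 20 were called higher and 1 lower in Cas9 control. In HK3-null 17 were called higher and 7 lower.

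**Figure D4:**
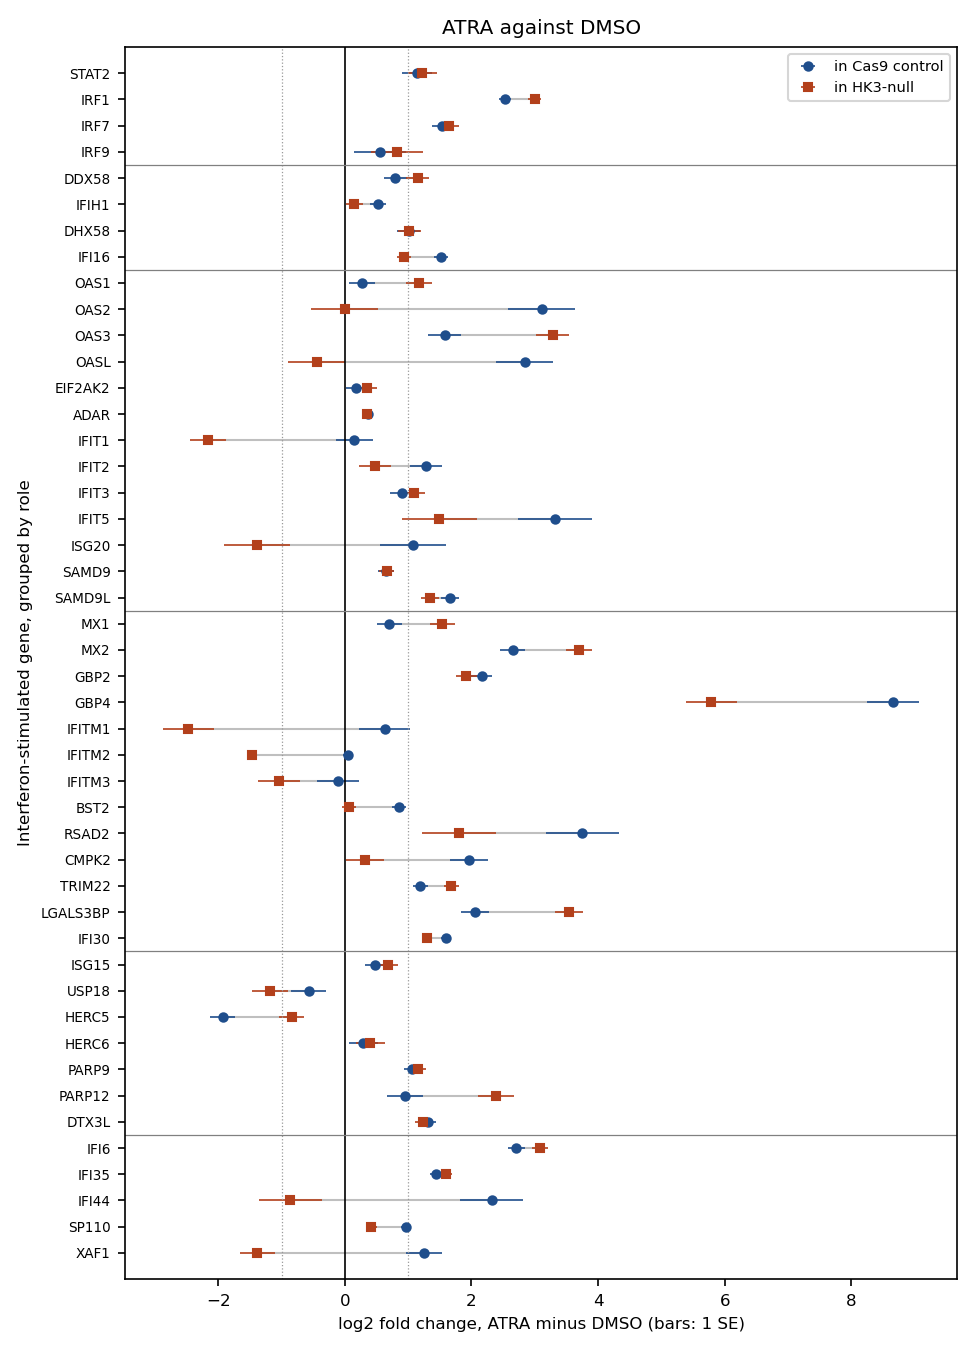
Each row is a tested member, with the log2 fold change of ATRA over DMSO in Cas9 control (circles) and HK3-null (squares), bars of 1 SE from the limma fit, and dotted lines at 2-fold. GBP4 lies furthest to the right in both genotypes (8.66 and 5.79), the 4 transcription factors show both symbols to the right of 0, and IFIT1, IFITM1, IFITM2 and XAF1 show the HK3-null square left of 0 with the Cas9 control circle to its right.

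The difference between the 2 ATRA responses was tested as an interaction of genotype and treatment, called at an adjusted p under 0.05 alone. In 5 members (OAS3, MX2, LGALS3BP, HERC5 and PARP12) the response was more positive in HK3-null, 10.9% of the tested members beside 4.79% of all tested genes, and 9 members were called so in the blocked fit, which added IRF1, OAS1, MX1 and TRIM22. In 12 (IFI16, OAS2, OASL, IFIT1, GBP4, IFITM1, IFITM2, BST2, CMPK2, IFI44, SP110 and XAF1) it was more negative, 26.1% beside 5.18%, and the blocked fit added IFIT5 and ISG20. Without the 5 members that reached the filter in Cas9 control ATRA alone, 9 of 41 were more negative (22.0%). The count of 5 was between 2 and 5 when a library was left out, with 2 without Cas9 control DMSO replicate 1, HK3-null ATRA replicate 1 or HK3-null DMSO replicate 3, and 3 without Cas9 control ATRA replicate 1 or 2, Cas9 control DMSO replicate 2, HK3-null ATRA replicate 2 or HK3-null DMSO replicate 2. Of the 17 members, 16 were effectors.

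The genes that make, bind and transmit interferon were followed as a separate list of 42 pathway genes, of which 29 were tested. All 10 interferon genes on it were at 0 in all libraries, except for IFNB1 with 1 normalized count in 2 libraries. A count of 0 allows up to 3 counts per library, so ligand RNA below that level was not detectable at this depth. The receptor of type III interferon, IFNLR1, was at 0 throughout. In DMSO 3 of the 29 genes were called higher in HK3-null (SOCS1, IRF8 and TLR8), 10.3% beside 11.5% of all tested genes, and 2 lower (STING1 and TLR3), 6.9% beside 8.75%. In ATRA again 3 were called higher (IFNGR1, SOCS1 and TLR8), beside 12.4%, and 2 lower (IRF8 and TLR3), beside 10.6%. These genotype shares were near or below those of all genes. Under ATRA 4 were called higher in Cas9 control (13.8%, beside 7.26%) and 9 in HK3-null (31.0%, beside 8.83%). Called lower were 1 (3.45%, beside 3.19%) and 3 (10.3%, beside 6.51%). The response was more positive in HK3-null for 7 (24.1%, beside 4.79%) and more negative for 3 (10.3%, beside 5.18%). The blocked fit added IFNGR2 and TBK1 as more positive.

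Among the receptor and JAK-STAT genes tested, PIAS1 was the only 1 to pass as lower in HK3-null. IFNAR1, a chain of the type I receptor, was at 1227, 1476 and 1435 normalized counts in Cas9 control DMSO and 1711, 1966 and 2007 in HK3-null DMSO (0.46, adjusted p = 0.00267), with 0.50 in ATRA. IFNAR2, the other chain, did not pass in DMSO (-0.05) and passed in ATRA at 0.77. IFNGR1, a type II receptor chain, changed by 0.96 and 1.43, and it lies on chromosome 6, whose median was 0.519 in DMSO and 0.562 in ATRA. With that median subtracted its ATRA change was 0.87 and no longer called. IFNGR2 changed by 0.38 and 0.67, and IL10RB by 0.13, which passed only in the blocked fit (adjusted p = 0.0318 against 0.0866), and 0.77.

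Among the JAK kinases, JAK1 passed at 0.68 and 0.88 in DMSO and ATRA, JAK2 did not pass in either treatment, and TYK2 passed in ATRA at 0.51 and, in the blocked fit alone, in DMSO at 0.15 (adjusted p = 0.0282 against 0.0871). PIAS1, an inhibitor of STAT signalling that lies on chromosome 15, changed by -0.74 and -0.64 beside that chromosome's medians of -0.936 and -0.957, and with the median subtracted its DMSO change was 0.20 and did not pass (adjusted p = 0.081).

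SOCS1 and SOCS3, feedback inhibitors of JAK kinases, rose under ATRA in both genotypes. SOCS1 was at 7, 4 and 11 normalized counts in Cas9 control DMSO, 16, 26 and 41 in HK3-null DMSO, 65, 59 and 69 in Cas9 control ATRA and 218, 291 and 288 in HK3-null ATRA, so that it was called higher in HK3-null in both treatments (1.78 and 2.02). SOCS3 was at 0 to 13 in DMSO and at 709 to 1225 in ATRA, and did not pass between genotypes. IRF8, a factor of the monocytic lineage, was at 106, 86 and 103 against 270, 261 and 300 in DMSO and at 110, 98 and 111 against 28, 17 and 48 in ATRA, and its responses differed by -3.35 (adjusted p = 0.000201). STING1, the adaptor of DNA sensing on chromosome 5, was at 2139, 2220 and 1899 against 908, 832 and 814 in DMSO and did not pass in ATRA (-0.15, adjusted p = 0.0962) except in the blocked fit (adjusted p = 0.0126). With the chromosome's median subtracted it stood at -0.54 in DMSO, no longer called, and at 0.62 in ATRA (adjusted p = 1.51e-05). TLR8, a receptor for single-stranded RNA, was called higher (3.14 and 2.81), and TLR3, a receptor for double-stranded RNA, was called lower (-1.61 and -3.03). TLR8 was at 2 to 11 normalized counts in the Cas9 control libraries and 38 to 74 in HK3-null. TLR3 was at 7 to 65 in Cas9 control and 1 to 9 in HK3-null. The sizes of these changes depend on the 1 added to each count.

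ATACseq was read at the 19 regions that listed a member. All 8286 deposited regions differed at least 1.5-fold between the genotypes in ATRA, so that contrast chose the regions. Its values are described with no test. The changes under ATRA in either genotype use the same ATRA libraries as that choice, so their p-values below are not independent of it. In ATRA the signal was lower in HK3-null in 13 of the 19 regions (68.4%), where it was lower in 45.1% of all regions. In DMSO, the genotype difference was fitted in the 15 member regions above the minimum signal, on the same 2 lines. Of the 8286 regions, 7578 also differed at least 1.5-fold between the genotypes in DMSO. A difference was thus likely beforehand, and the p-values are not independent of the choice of regions. In that contrast 10 of the 15 were called lower in HK3-null, beside 43.9% of all tested regions, and 1 higher, beside 42.7%. The median log2 fold change was -1.17, against 0.33 over all tested regions. Among the 10 were the IRF1 regions on chromosome 5 and the ISG20 regions on chromosome 15. The RNA medians of these chromosomes were -0.749 and -0.936 in DMSO, and the ATACseq fit was not centred by chromosome. A region was called at an adjusted p under 0.05 in limma with at least 1.5-fold.

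**Figure D5:**
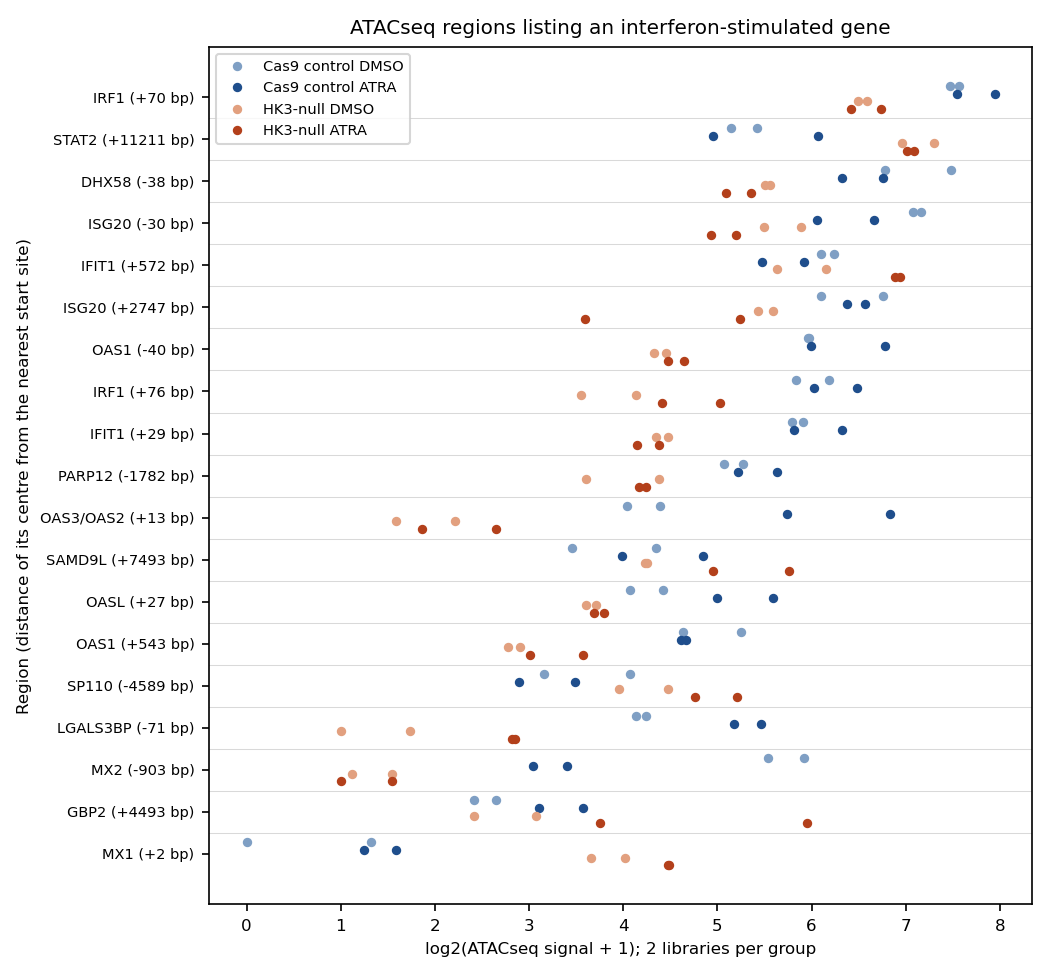
Each row is 1 of the 19 regions that list a member, ordered by mean signal and labelled by the distance of its centre from the nearest GENCODE start site of that gene, and each point is log2(signal + 1) in 1 of 2 libraries per group. The HK3-null points lie left of the Cas9 control points at the OAS1, OAS3/OAS2, LGALS3BP, IRF1, MX2 and DHX58 regions and right of them at the STAT2 and MX1 regions.

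At the oligoadenylate synthetase cluster, 3 regions were measured (hg38, coordinates as deposited). The region chr12:112978175-112978639 covered an OAS2 start site of the GENCODE annotation, with its centre 13 bp into the gene, and 1 ISRE core match. Its signal was 15.5 and 19.9 in Cas9 control DMSO, 113 and 52.5 in Cas9 control ATRA, 3.64 and 2.0 in HK3-null DMSO and 2.64 and 5.27 in HK3-null ATRA. It was called lower in HK3-null in DMSO (-2.32 ± 0.48, adjusted p = 5.58e-05) and was the 1 member region called higher under ATRA in Cas9 control (2.07 ± 0.48, adjusted p = 0.00176), where 2.54% of all tested regions were. That call was lost without Cas9 control ATRA replicate 1 (1.53, adjusted p = 0.0739).

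The region chr12:112906661-112907156 covered the OAS1 start site. Its signal was 61.3 and 62.0 in Cas9 control DMSO, 109 and 62.6 in Cas9 control ATRA, 19.1 and 20.9 in HK3-null DMSO and 24.0 and 21.2 in HK3-null ATRA, a genotype change in DMSO of -1.58 ± 0.33 (adjusted p = 6.31e-05). The neighbouring region chr12:112907295-112908058, centred in an OAS1 exon, had 37.1 and 23.9 against 5.83 and 6.5 in DMSO (-2.10 ± 0.43). OAS1 and OAS3 RNA were also lower in HK3-null in DMSO.

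At LGALS3BP, the region chr17:78979803-78980231 covered the start site and the ISRE core match printed above. Its mean was below the minimum for testing. Its signal was 16.6 and 17.9 in Cas9 control DMSO, 43.1 and 35.2 in Cas9 control ATRA, 1.00 and 2.33 in HK3-null DMSO and 6.21 and 6.07 in HK3-null ATRA. The 4 groups stood in the same order as the LGALS3BP RNA.

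At IFIT1, 2 neighbouring regions behaved differently. The region over the start site, chr10:89392337-89392812, with both ISRE core matches printed above, had 59.1 and 54.5 in Cas9 control DMSO against 21.3 and 19.3 in HK3-null DMSO (-1.44 ± 0.33, adjusted p = 0.000202), and 78.9 and 55.2 against 16.7 and 19.8 in ATRA. The region centred 572 bp into the gene, chr10:89392963-89393425, had 67.4 and 74.4 against 70.1 and 48.6 in DMSO (-0.27, adjusted p = 0.375), and 59.5 and 43.3 against 117 and 122 in ATRA. It was the 1 member region called higher under ATRA in HK3-null (1.02 ± 0.30, adjusted p = 0.0143), beside 5.04% of all tested regions, a call lost without HK3-null DMSO replicate 2 (0.76, adjusted p = 0.321). IFIT1 RNA, at low counts in HK3-null, fell under ATRA in the same cells.

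Both regions at IRF1 covered a GENCODE start site of the gene, but neither covered the RefSeq start site at the end of the span given above. The first lay inside that span and the second outside it, so accessibility at the RefSeq start site was not read. The region chr5:132488019-132488232 had 71.9 and 56.0 in Cas9 control DMSO against 16.6 and 10.7 in HK3-null DMSO (-2.17 ± 0.34, adjusted p = 9.62e-07). The larger region, chr5:132495648-132497144, had 176 and 188 against 95.0 and 88.8 (-0.98 ± 0.28, adjusted p = 0.00186). Neither region passed under ATRA in either genotype, while IRF1 RNA rose 5.76-fold in Cas9 control and 7.98-fold in HK3-null. The shift of chromosome 5 was not subtracted from the region values.

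At DHX58, the region chr17:42107632-42108139, which covered an annotated internal start site, was lower in HK3-null in DMSO, at 44.3 and 46.2 against 109 and 178 (-1.60 ± 0.30, adjusted p = 1.85e-05), while DHX58 RNA did not pass. The PARP12 intron region chr7:140036248-140036786 had 19.8 and 11.2 against 37.5 and 32.5 (-1.17 ± 0.36, adjusted p = 0.00383), a call lost without HK3-null DMSO replicate 2 (adjusted p = 0.125).

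The 2 ISG20 regions lay on chromosome 15, chr15:88638644-88639200 over a start site and chr15:88641491-88642087 in an intron. In DMSO the first had 134 and 142 in Cas9 control against 44 and 58.2 in HK3-null (-1.43). The second had 107 and 67.7 against 42.1 and 47.0 (-0.92). The shift of chromosome 15 was not subtracted from these values. The second was the 1 member region called lower under ATRA in HK3-null (-1.09, adjusted p = 0.033), where 11.8% of all tested regions were, and that call was lost without HK3-null ATRA replicate 1 (-0.27, adjusted p = 0.742) and without Cas9 control ATRA replicate 1 or 2 or HK3-null DMSO replicate 1 or 2. Its DMSO call was lost without Cas9 control ATRA replicate 1 or 2, Cas9 control DMSO replicate 1 (adjusted p = 0.20) or HK3-null DMSO replicate 1. By limma 0 member regions were called lower under ATRA in Cas9 control, beside 15.6% of all tested regions, and 1 was lower at an unadjusted p under 0.05. The Cas9 control ATRA replicate 2 had a lower median signal over all regions (20.9) than replicate 1 (29.5).

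The region that listed STAT2 together with PAN2 and IL23A, chr12:56336678-56337049, lay over IL23A, 11211 bp from the nearest STAT2 start site. It was the 1 member region called higher in HK3-null in DMSO, at 157 and 123 against 34.3 and 41.7 (1.85 ± 0.32, adjusted p = 3.66e-06). At MX1, the region chr21:41426050-41426354 over an internal start site had 15.2 and 11.6 in HK3-null DMSO and 21.3 and 21.4 in HK3-null ATRA, against 0 to 2.0 in the 4 Cas9 control libraries, below the minimum for testing. MX1 RNA did not pass in DMSO. The MX2 intron region chr21:41380639-41381482, also below the minimum, had 59.4 and 45.4 in Cas9 control DMSO, 7.22 and 9.56 in Cas9 control ATRA and 1.00 to 1.92 in the 4 HK3-null libraries, while MX2 RNA rose under ATRA in both genotypes.

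The remaining regions, at OASL, SAMD9L, SP110 and GBP2, were not called in any contrast tested, except for the SAMD9L region under ATRA in HK3-null in the blocked fit (1.12, adjusted p = 0.0389 against 0.0503), and the GBP2 region was below the minimum. At the OASL start site (chr12:121038810-121039446) the signal was 15.8 and 20.4 in Cas9 control DMSO, 47.0 and 30.9 in Cas9 control ATRA, and 11.2 to 12.9 in the 4 HK3-null libraries. The ATRA change in Cas9 control was 1.04 ± 0.39 and did not pass (adjusted p = 0.0598). A window of 300 bases on the centre of each region held the ISRE core in 5 of the 19 member regions (26.3%) and in 492 of all 8286 regions (5.94%), and the GAS core in 2 (10.5%) and 656 (7.92%).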

How the data were processed

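RNAseq of 12 libraries and ATACseq of 8 libraries were analysed. The RNAseq files hold, for each gene, a log2 value that the authors deposited after paired-end directional sequencing and mapping to GRCh38; the submitters' notes name DESeq2 and MACS2, and for the aligner and the counter no name is given in the sources used here. Raising 2 to each value gave whole numbers (largest relative deviation 3.47e-05), with 0 written as the log2 of 0.001, so the values were read as normalized counts. Counts before scaling were not used here, so no count model was run, and depth is known only as normalized totals. The 330 rows without a gene name (at most 0.00926% of normalized counts) were left out. The ATACseq table holds a signal per region that the authors deposited after peak calling and scaling of libraries to a common fragment number. Its depth is unknown. The chromosome ends of hg38 held all regions, and 99.6% of 7796 pairs of a region and a listed gene lay within 100 kb on that build.

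Values were fitted as log2(normalized count + 1) with limma 3.58.1 under R 4.3.3 (linear model, trended eBayes), 1 mean per group over all 12 libraries, for 13256 genes with a group mean deposited log2 value above 3 in at least 1 group. A fold change is therefore on the log2(count + 1) scale and understates changes of low genes. ATACseq was fitted as log2(signal + 1) over 6214 regions with a mean signal above 17.1, the 25th percentile. P-values were adjusted by Benjamini-Hochberg over all tested genes or regions, never over the list. The code was tested on simulated data. Groups came from the submitters' labels. Among 10667 genes averaging 50 normalized counts or more, all 18 same-numbered pairs of libraries from different groups deviated together (r 0.178 to 0.631, across genes, which are not independent), against -0.643 to 0.286 for 36 other pairs, so the numbers were taken to pair the libraries, and the value with the replicate number as a block is given where it changes a call.

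The members, the pathway and marker lists and the rule for named genes were chosen with earlier results of these data known. The rule named HK3, the 8 factors and sensors, for each contrast the 6 called effectors with the largest change and a group mean of at least 50, effectors with an interaction and such a mean, the 3 called pathway genes with the largest genotype changes, receptors and JAK-STAT genes, and member regions, with at most 12 in full by mean signal. A JAK-STAT gene of the pathway list is not reported here. Other members and regions given by name were added after their values were seen. Alternatives covered the pseudocount, the filter, quantile scaling, the deposited values, the replicate block, thresholds, chromosome centring, eBayes without trend, and leaving out each library. Promoters are from RefSeq (GRCh38.p14), and region annotation is from GENCODE on hg38.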

Additional observations from a re-analysis of the deposited data

Results flagged for a closer look

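The results in this section drew attention because the ATRA response differed between HK3-null and Cas9 control by the interaction test of limma (adjusted p under 0.05 over 13256 genes, 12 libraries). Values are the log2 response in HK3-null minus that in Cas9 control.

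The response was more positive in HK3-null for OAS3 (1.69 ± 0.37 SE), LGALS3BP (1.48 ± 0.31), PARP12 (1.44 ± 0.40), HERC5 (1.09 ± 0.28) and MX2 (1.05 ± 0.28). It was more negative for IFITM2 (-1.52 ± 0.11), SP110 (-0.54 ± 0.11), BST2 (-0.81 ± 0.16), IFI16 (-0.59 ± 0.16), CMPK2 (-1.64 ± 0.42), XAF1 (-2.62 ± 0.40), IFIT1 (-2.31 ± 0.40) and GBP4 (-2.86 ± 0.58). IFITM1 (-3.10 ± 0.56), OASL (-3.28 ± 0.64), OAS2 (-3.11 ± 0.74) and IFI44 (-3.18 ± 0.71) had no group mean of 50 normalized counts. Of these, OASL, OAS2 and IFI44 reached the filter on low values in Cas9 control ATRA alone, so a contrast with that group had to differ. The fitted value of IFI44 depends on the 1 added to each count and is no bound, because all 3 HK3-null ATRA libraries were at 0.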

How the results depend on the processing

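Of the values computed for single members and regions under the alternatives, 3714 kept their direction and side of the threshold, 131 fell below it, 8 rose above it and 2 reversed. The reversals were GBP4's difference between ATRA responses with the deposited log2 values (0.25, where 0 is written as the log2 of 0.001) and IRF1 between genotypes in ATRA with each chromosome's median subtracted (0.11). Of the counts under these alternatives, 255 stayed within 1.5 times the reported value and 41 did not. With 8 added in place of 1, members called lower under ATRA in HK3-null were 3, and regions called higher under ATRA were 2 in Cas9 control and 2 in HK3-null. Without a filter, members with a more positive response in HK3-null were 3, regions higher in DMSO 2, regions lower under ATRA in Cas9 control 1, and regions under ATRA in HK3-null 3 higher and 0 lower. With the replicate block, members with a more positive response were 9 and regions higher under ATRA in HK3-null 2. Over all tested members and contrasts the block brought 15 values past the threshold, each given above, and took 0 below it. With the deposited log2 values 11 fell below it and 1, IFI44 under ATRA in HK3-null, rose above it. With each chromosome's median subtracted, DHX58's ATRA changes of 1.01 and 1.02 became 0.98 and 0.96 and were no longer called. Leaving out the 5 members that reached the filter in Cas9 control ATRA alone, an alternative chosen after seeing the data, kept every count of members within 1.5 times. With an unadjusted p under 0.05 and 1.5-fold, members with a more positive response were 9. With quantile scaling, regions higher were 2 in DMSO, 4 under ATRA in Cas9 control and 3 under ATRA in HK3-null, and 0 were lower there. Among regions that list a single gene, 0 were higher and 1 lower in DMSO, 0 were higher under ATRA in Cas9 control, and 0 were higher and 0 lower under ATRA in HK3-null.

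Leaving out each library gave 3 to 4 members higher and 11 to 14 lower in HK3-null in DMSO, 4 to 6 higher and 20 to 23 lower in ATRA, 23 to 26 higher under ATRA in Cas9 control, 20 to 23 higher and 5 to 7 lower under ATRA in HK3-null, and 2 to 5 more positive and 9 to 12 more negative responses in HK3-null. Regions were 9 to 10 lower in DMSO, 0 to 2 higher and 0 to 1 lower under ATRA in Cas9 control, and 0 to 3 higher and 0 to 1 lower under ATRA in HK3-null, where a group left with 1 ATACseq library was assumed to vary like the others. With 2 libraries per group and no counts behind the signal, small ATACseq changes were not detectable, and changes of members with a few normalized counts depend on the value given to 0. The cause of these changes was not tested.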
